A study of Drosophila melanogaster with 6 samples.

Results

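The digestive lysozymes of Drosophila melanogaster are a family of small secreted enzymes encoded side by side on the left arm of the third chromosome. The 6 members described here, LysB, LysD, LysE, LysP, LysS and LysX, were taken by their FlyBase symbols from the 17869 genes counted in the series, and 4 of them had enough reads to be tested. RNA was sequenced from whole second instar (L2) larvae of 2 genotypes, with 3 libraries each. Pyk 23/31 mutants carry a different small CRISPR deletion of Pyk, each shifting the reading frame in the first coding exon, on either chromosome, and die as L2 larvae. Pyk 23/+ controls carry the Pyk 23 deletion on a single chromosome beside a wild-type copy, so both genotypes share that allele and neither is fully wild type. Pyk encodes pyruvate kinase, the enzyme of the final step of glycolysis.

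Lysozymes cut the sugar backbone of peptidoglycan, the polymer of the bacterial cell wall. In flies the clustered c-type (chicken-type) lysozymes are known mainly as enzymes of digestion, secreted into the gut of an animal that eats bacteria and yeast on decaying fruit. LysB, LysD and LysE are closely related copies known from the midgut, LysS is known from the gastric caeca, the pouches at the front of the larval midgut, LysP from the salivary glands of the adult, and LysX from the gut around metamorphosis.

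The libraries held 11249487 to 16029304 read pairs assigned to genes. Levels are given as CPM, the count of a gene scaled by the effective size of its library. The limit set by a count of 0 is 3 counts, which correspond to 0.185 to 0.272 CPM. The mutated gene followed the labels, with 51.8 ± 7.06 CPM of Pyk in mutants and 442 ± 23.1 CPM in controls (SD, n = 3 each). Its log2 fold change was -3.09, with a standard error (SE) of 0.10. Of 11422 genes tested with edgeR's quasi-likelihood test, 600 were called higher and 257 lower in mutants, or 7.50% together, where a call needed a Benjamini-Hochberg adjusted p no larger than 0.05 with a 2-fold difference or more. By the adjusted p alone 48.2% passed. The count of genes called higher was 389 without control replicate 2. The larvae were sequenced whole, and fewer cells of a type cannot be told apart from less RNA per cell.

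Of the clustered lysozymes, 3 fell in Pyk mutants and a single member rose. LysD, LysE and LysB were 6.08-, 6.34- and 4.75-fold lower in mutants than in controls, whereas LysS was 2.11-fold higher. LysP and LysX were at 0 to 2 counts in every library of both genotypes. Over all genes tested, 2.25% were called lower and 5.25% called higher by the same rule. The libraries of the genotypes did not overlap for these 4 members, nor for 60.9% of all genes tested (29.4% with mutants higher and 31.5% with mutants lower). The values of the 4 tested members by library are shown in the plot of lysozyme expression.

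**Figure D1:**
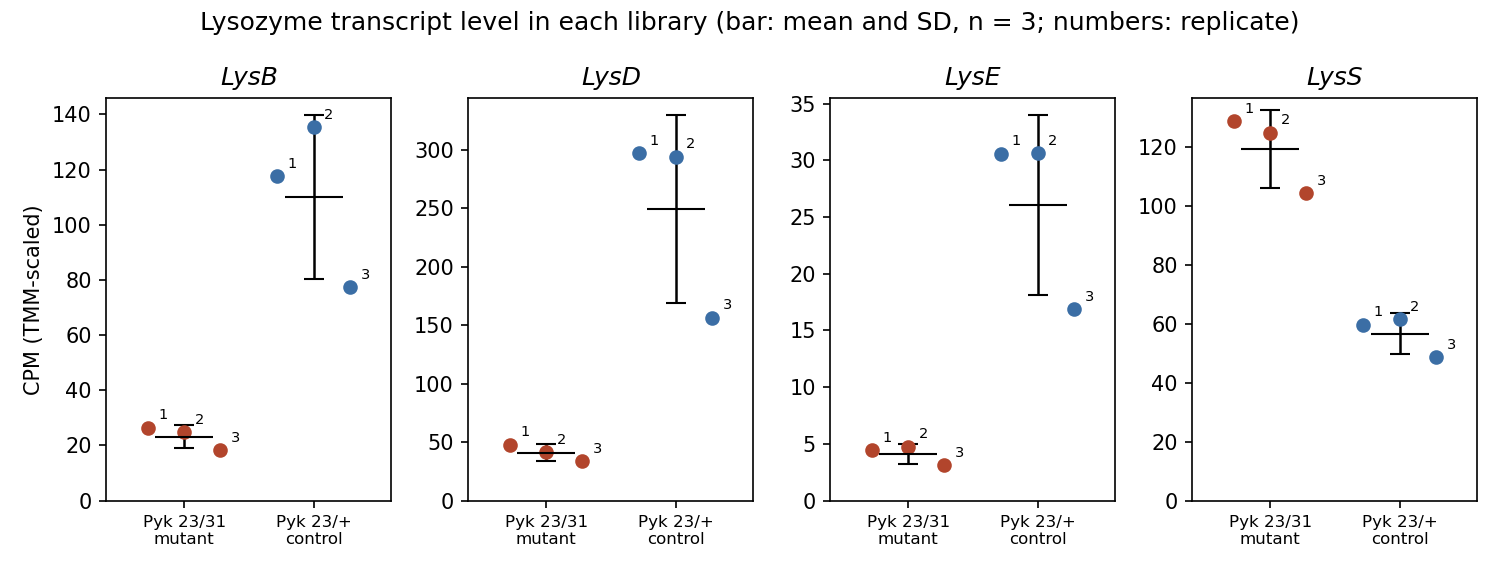
Each panel plots the CPM of a tested lysozyme gene on an axis starting at 0, with a point per library and bars for mean and SD (n = 3), mutants on the left and controls on the right. LysB, LysD and LysE were lower in all 3 mutant libraries than in any control, and LysS was higher in all 3 mutant libraries.

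LysD (FBgn0004427), a midgut c-type lysozyme, was the most abundant member in controls. It lies on the minus strand of chromosome 3L at bases 1210717 to 1211196 and consists of a single exon that encodes a protein of 140 residues. It had 778, 528 and 475 counts in mutants, against 3356, 3427 and 1723 counts in controls. Scaled to library size these were 47.9, 41.2 and 33.8 CPM in mutants, against 296.9, 294.1 and 156.4 CPM in controls. The genotypes did not overlap, and the lowest control was more than 3 times the highest mutant. The log2 fold change was -2.60 (SE 0.33, edgeR adjusted p = 0.00375). By level, LysD ranked 3650 among the tested genes in mutants and 602 in controls.

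LysB (FBgn0004425), a second midgut copy, lies on the plus strand at 3L, bases 1207371 to 1207981. Its protein is also 140 residues long. It had 26.4, 24.9 and 18.3 CPM in mutants, from 429, 319 and 257 counts. In controls it had 117.6, 135.4 and 77.35 CPM, from 1329, 1578 and 852 counts. Again no mutant library reached any control library, and the log2 fold change was -2.25 (SE 0.28, edgeR adjusted p = 0.00254).

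LysE (FBgn0004428) is the least abundant of these midgut copies and lies on the plus strand at 3L, bases 1212827 to 1213406, in a single exon with a product of 140 residues. It had 4.43, 4.76 and 3.13 CPM in mutants, resting on only 72, 61 and 44 counts. In controls it had 30.6, 30.6 and 16.9 CPM, from 346, 357 and 186 counts. The log2 fold change was -2.66 (SE 0.31, edgeR adjusted p = 0.00123), and the genotypes did not overlap. Among all genes tested, 0.315% had a lower log2 fold change than LysE and 0.490% a lower one than LysB.

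LysS (FBgn0004430), the lysozyme of the larval gastric caeca, went the other way. It lies on the plus strand at 3L, bases 1227747 to 1228238, with a single exon and a product of 140 residues. It had 2092, 1602 and 1469 counts in mutants, against 675, 718 and 535 counts in controls. The levels were 128.8, 124.9 and 104.4 CPM in mutants, and 59.7, 61.6 and 48.6 CPM in controls, so that the lowest mutant stood well above the highest control. The log2 fold change was 1.08 (SE 0.11, edgeR adjusted p = 0.000102). Without control replicate 3 it was 0.96 (edgeR adjusted p = 4.86e-05), which still passed the adjusted p but not the 2-fold threshold. A change of this size was common in the comparison, since 9.20% of all genes tested had a higher log2 fold change than LysS.

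LysP and LysX were barely detected. LysP (FBgn0004429; 3L, bases 1218082 to 1218696, minus strand, 141 residues), the salivary gland member, had 0, 0 and 0 counts in mutants and 0, 1 and 0 counts in controls. LysX (FBgn0004431; 3L, bases 1194739 to 1195302, minus strand, 142 residues) had 0, 2 and 0 counts in mutants and 0, 2 and 0 counts in controls. Both stayed under the minimum of 12 counts over the 6 libraries, and no fold change is given. A difference between the genotypes was not detectable for either gene at this depth.

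The order of the members differed between the genotypes. Per kilobase of exon, mutants had 243 ± 26.6 CPM of LysS, 85.3 ± 14.7 CPM of LysD, 37.95 ± 7.08 CPM of LysB and 7.08 ± 1.49 CPM of LysE (SD, n = 3). In controls the order was LysD with 519 ± 167 CPM per kilobase, LysB with 180 ± 48.7, LysS with 115.1 ± 14.3 and LysE with 44.9 ± 13.7 (SD, n = 3). Neighbours in these orders did not overlap between libraries, except that LysB and LysS in controls were barely separated, with 127 CPM per kilobase in the lowest LysB library and 125 in the highest LysS library. These levels count uniquely mapped pairs only, so pairs that fit more than a single copy are missing from them.

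Because near-identical copies can exchange reads, the CPM of the 6 genes were also summed in each library. Pairs that fit more than a single copy reached no gene and are missing from the sum as well. The family sum was 207.5, 195.9 and 159.6 CPM in mutants, against 504.7, 522 and 299.2 CPM in controls. The genotypes did not overlap. The means were 187.7 ± 25.0 CPM in mutants and 442 ± 124 CPM in controls (SD, n = 3 each), a log2 ratio of -1.24 or a sum 2.36-fold lower in mutants. As a part of all assigned read pairs, the family held 0.0163% to 0.0210% in mutants and 0.0293% to 0.0516% in controls. No test was made on the sum, since the members had been chosen with results known. LysD carried most of the difference. Without LysD the sum was 159.6, 154.7 and 125.8 CPM in mutants and 207.9, 227.9 and 142.8 CPM in controls, which overlap, and the log2 ratio was -0.39.

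**Figure D2:**
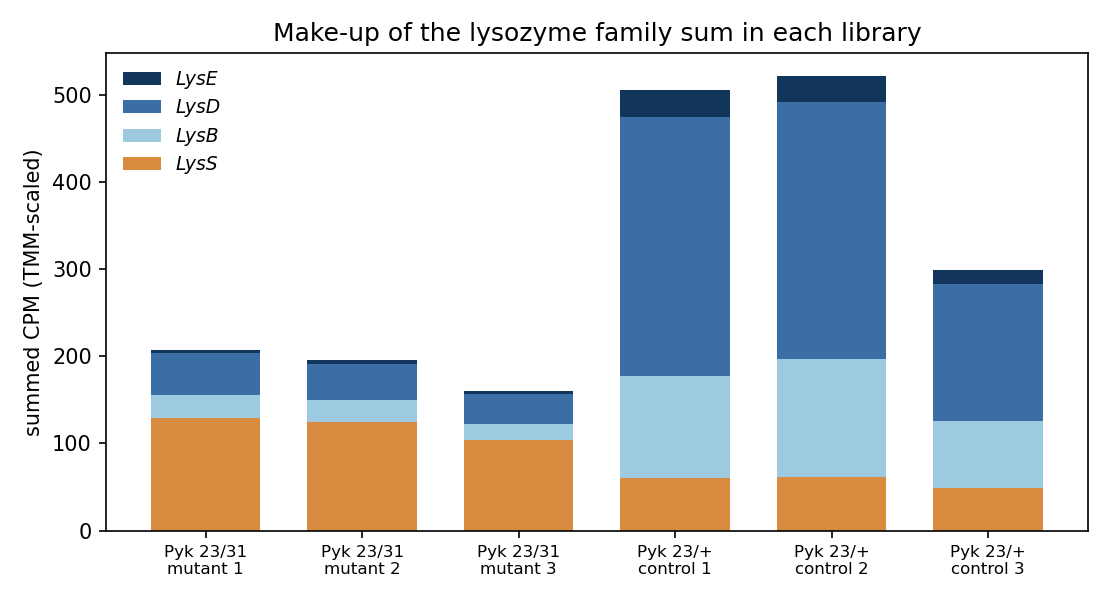
Stacked bars give the CPM of each lysozyme gene in each of the 6 libraries, mutants left of controls, on a linear axis from 0, so that the height of a bar is the family sum. The mutant bars reached 159.6 to 207.5 CPM and are mostly LysS, and the control bars reached 299.2 to 522 CPM and are mostly LysD and LysB.

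LysS made up most of the family in mutants and LysD most of it in controls. LysS provided 62.06% to 65.43% of the family's reads in mutants and 11.8% to 16.23% in controls. LysD provided 21.75 ± 1.15% in mutants and 55.81 ± 3.30% in controls, LysB 12.29 ± 0.73% in mutants and 25.03 ± 1.51% in controls, and LysE 2.18 ± 0.24% in mutants and 5.86 ± 0.21% in controls (SD, n = 3 each). The ratio of LysS to the summed CPM of LysB, LysD and LysE was 1.64, 1.76 and 1.89 in mutants, against 0.134, 0.134 and 0.194 in controls. Reads exchanged among LysB, LysD and LysE leave this sum unchanged. Pairs that fit more than a single copy are missing from it and from the shares. How many such pairs each copy lost was not computed. The grouping of LysB, LysD and LysE was made after the values were seen.

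The proportions of LysB, LysD and LysE to each other differed less. LysE was 0.0925, 0.116 and 0.0926 of LysD in mutants, and 0.103, 0.104 and 0.108 of LysD in controls, which overlap, with a mean log2 difference of -0.076 (two-sided exact permutation test of log2 ratios, p = 0.4). LysB was 0.551, 0.604 and 0.541 of LysD in mutants, and 0.396, 0.461 and 0.495 of LysD in controls, so that every mutant was above every control by a mean log2 difference of 0.33 (two-sided exact permutation test, p = 0.1). With 3 libraries against 3, the smallest p this test allows is 0.1. Both ratios were of genes chosen after their values were seen.

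The spread within a genotype was shared by the members. Replicate 3 had the lowest CPM of LysB, LysD, LysE and LysS in both genotypes, and the lowest family sum, at 159.6 CPM in mutants and 299.2 CPM in controls. Control replicate 3 was closer to the mutants than the other controls were for LysB, LysD and LysE, by 0.287 to 0.320 of the log2 distance between those controls and the mutants. For LysS it was shifted away from the mutants, at -0.330 of that distance. Replicate 3 also had the lowest summed CPM of digestive proteases, described further down, in both genotypes, while the midgut marker sum was not lowest there. The part of these values in the spread of the lysozymes was not tested. Without replicate 3 of both genotypes, the direction and the call of each of the 4 genes were kept.

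The 6 members span 33500 bases of chromosome 3L. LysB, LysD and LysE lie within 6036 bases of each other, and LysS begins 14340 bases beyond the end of LysE. LysB, LysD, LysE, LysP and LysS all lie inside introns of mwh (multiple wing hairs), a regulator of wing hair formation whose gene runs from base 1200786 to base 1232700 on the plus strand. The reads of these genes were assigned by strand, and the deposited counts of the opposite strand were 0 for LysB and LysE in all libraries. At LysD, opposite-strand reads summed to 24 in mutants and 93 in controls, against 1781 and 8506 counts on its own strand.

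The genes around the cluster were examined in the same fit. Of 12 genes within 10 kb that are not members, 11 were tested, 4 passed an adjusted p of 0.05 with higher and 1 with lower values in mutants, where 22.2% of all genes were higher and 26.0% lower by that rule. The lower gene was LysC, annotated as a pseudogene, which lies between LysB and LysE and overlaps the end of LysD by 10 bases on the other strand. It had 42, 31 and 16 counts in mutants and 164, 163 and 62 counts in controls, a log2 fold change of -2.47 (SE 0.51, edgeR adjusted p = 0.0134). It was named after its values were seen. The host gene mwh was higher, with 34.3 ± 13.5 CPM in mutants and 8.33 ± 1.86 CPM in controls (SD, n = 3 each) and a log2 fold change of 2.04 (SE 0.38, edgeR adjusted p = 0.0121). That call was lost without control replicate 2, at 1.92 (edgeR adjusted p = 0.052). It was also lost with the replicate number as a block (edgeR adjusted p = 0.0751). Of the other neighbours that passed, meep no longer did so without mutant replicate 1 or control replicate 2. Trhn failed without mutant replicate 1 or 3, without control replicate 1 or 2, and in DESeq2 and limma-voom. CG9192 failed when any single mutant library, control replicate 1 or control replicate 2 was left out (edgeR adjusted p = 0.0873 to 0.123).

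**Figure D3:**
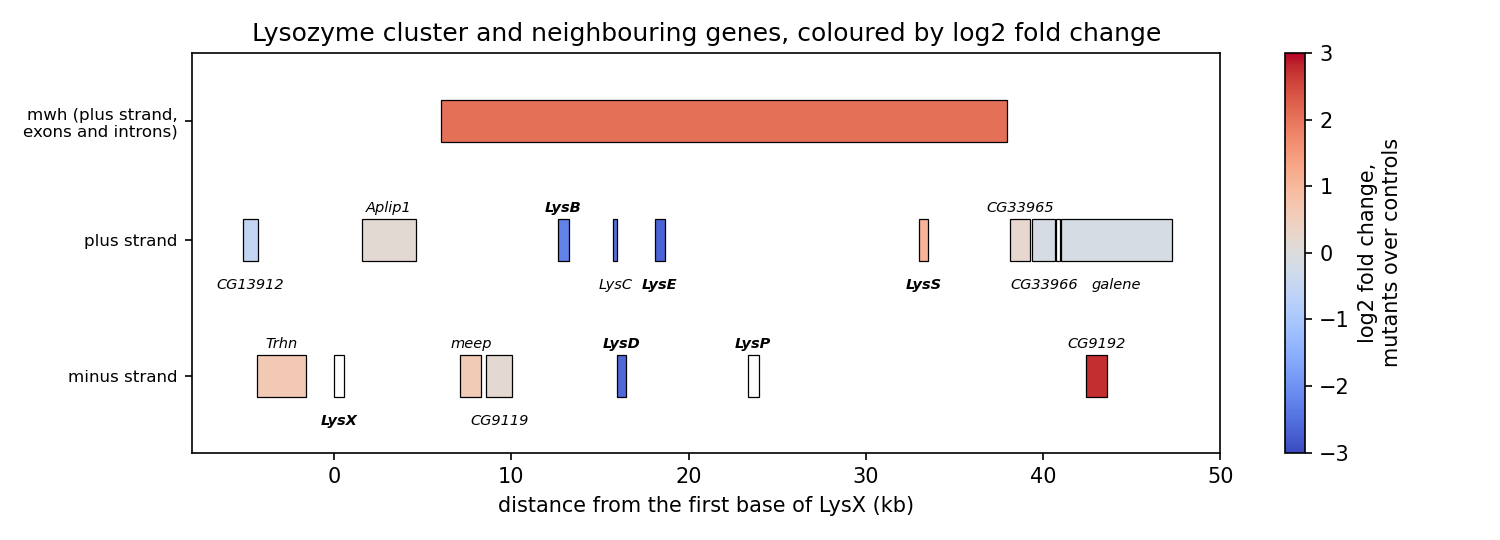
Map of the lysozyme cluster and its neighbours by strand, with distance from the start of LysX in kilobases on the horizontal axis and the log2 fold change of mutants over controls as colour (white where a gene was under 12 counts). LysB, LysC, LysD and LysE (-2.25 to -2.66) sit together inside mwh (2.04), and LysS (1.08) lies apart from them.

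The lysozyme genes outside the cluster were measured in the same libraries. Of 6 other c-type genes listed, 5 were tested, with 1 higher, 3 lower and 1 not past the adjusted p. By that adjusted p, 22.2% of all genes tested were higher and 26.0% lower, the shares to set beside each list below. CG7798, a c-type lysozyme gene at a low level, had 13, 5 and 10 counts in mutants and 51, 65 and 45 counts in controls, a log2 fold change of -2.86 (SE 0.27, edgeR adjusted p = 4.96e-05). This was close to the values of LysE and LysD. CG8492, which encodes a protein with several lysozyme domains, was the most abundant of these genes. It had 94.8, 102.5 and 148.7 CPM in mutants and 43.4, 44.1 and 65.7 CPM in controls, so that replicate 3 was its highest library in either genotype, unlike the clustered genes. Its log2 fold change was 1.18 (SE 0.27, edgeR adjusted p = 0.0206), and the call was lost without control replicate 1 (adjusted p = 0.0648) or control replicate 2 (adjusted p = 0.0682). Without mutant replicate 3 it was 0.95, which passed the adjusted p but fell short of 2-fold. CG16799 changed by -0.39 (SE 0.09, edgeR adjusted p = 0.00664). CG30062 rested on 13 counts in mutants and 32 in controls, and its lower call was lost without control replicate 1 (edgeR adjusted p = 0.0598) and in DESeq2 (adjusted p = 0.0689). CG16756 did not pass (-0.13), and CG11159 had 1 count in mutants and 0 in controls.

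Neither i-type (invertebrate-type) lysozyme gene that could be tested passed with edgeR, and none of the pair had an unadjusted p under 0.05 or passed in DESeq2 or limma-voom. CG6426 had 86.4 CPM in mutants and 76.0 CPM in controls (log2 fold change 0.19), and CG14823 had 4.79 CPM in mutants and 5.11 CPM in controls (log2 fold change -0.09). CG6421 had no counts and CG6429 had 1 count in mutants and 0 in controls.

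Peptidoglycan is also degraded by amidases of the PGRP family, which cut the peptide from the sugar chain and limit immune signalling in the gut. All 6 amidase genes listed were tested, with 2 higher and 1 lower, where 22.2% of all genes were higher and 26.0% lower. PGRP-SC2 was higher, at 62.05, 71.2 and 53.0 CPM in mutants against 32.1, 31.0 and 30.3 CPM in controls (log2 fold change 0.99, SE 0.10, edgeR adjusted p = 7.26e-05). PGRP-LB was higher by a log2 fold change of 0.64 (SE 0.13, edgeR adjusted p = 0.00299). PGRP-SB1 was lower, with 2.77, 3.59 and 5.33 CPM in mutants against 8.93, 10.8 and 6.36 CPM in controls (log2 fold change -1.16, SE 0.28, edgeR adjusted p = 0.0111). It did not pass with the replicate number as a block (edgeR adjusted p = 0.0562). PGRP-SC1a, PGRP-SC1b and PGRP-SB2 did not pass. The fold changes of all these genes are set side by side in the plot of lysozyme and amidase genes.

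**Figure D4:**
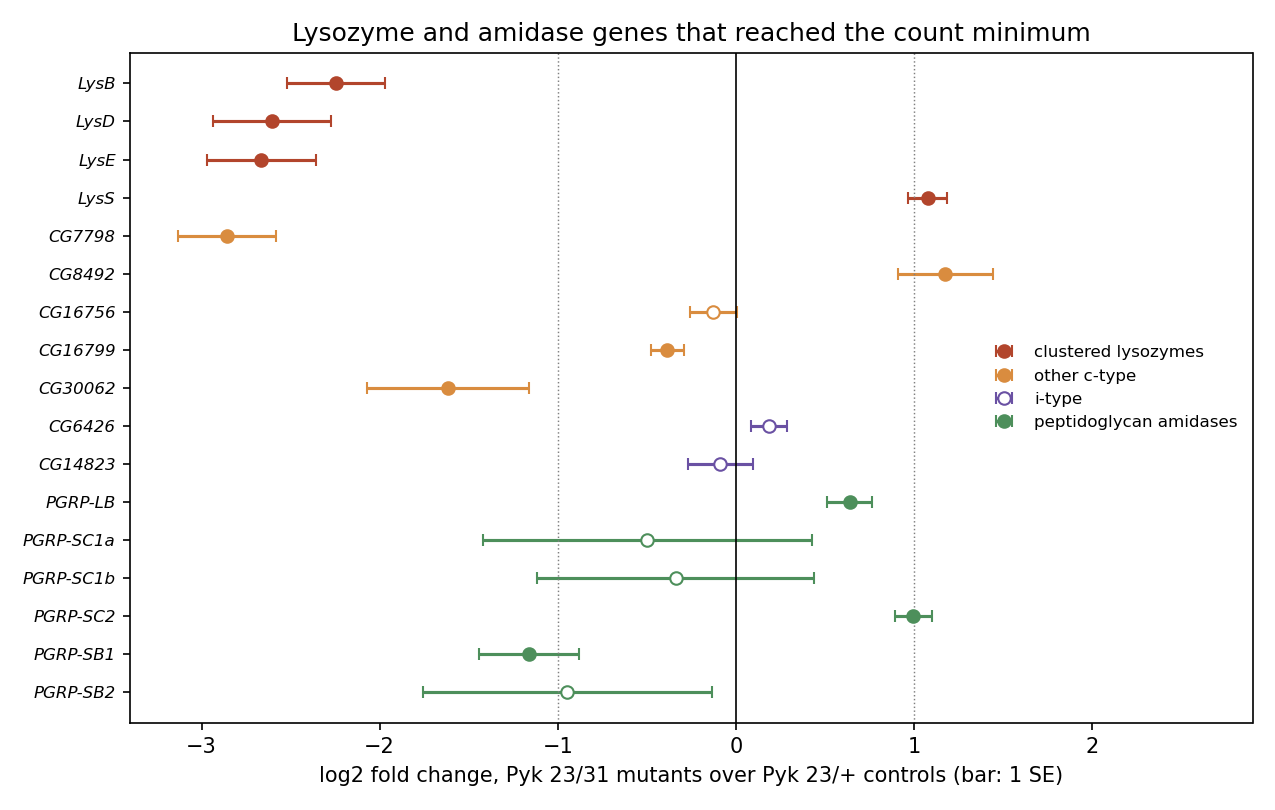
Log2 fold change of mutants over controls with a bar of 1 SE for each clustered lysozyme, other c-type and i-type lysozyme and peptidoglycan amidase that reached 12 counts, with dotted lines at a 2-fold change. Filled points passed an adjusted p of 0.05. LysB, LysD, LysE and CG7798 lie between -2.25 and -2.86, and LysS and CG8492 lie at 1.08 and 1.18.

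Other enzymes of digestion moved less than LysB, LysD and LysE. Of 27 trypsin and Jonah serine protease genes listed, 25 were tested, and 14 rose, 1 fell and 10 did not pass. Their median log2 fold change was 0.26, against 0.02 over all genes tested. Of all genes tested, 22.2% rose and 26.0% fell by the adjusted p alone. The trypsins betaTry and epsilonTry rose by 1.81 and 1.52 (edgeR adjusted p = 1.42e-05 and 8.34e-06). The protease that fell, Jon66Cii, changed by -0.51 (edgeR adjusted p = 0.0296) and no longer passed when any of 4 single libraries was left out, nor in limma-voom. Of 18 amylase, maltase and mannosidase genes, all tested, 7 rose, 2 fell and 9 did not pass, with a median of 0.13. The glucosidase genes tobi and Mal-A8 rose by 0.62 and 0.72 on the log2 scale (edgeR adjusted p = 0.000107 and 0.000168). LManIII, an alpha-mannosidase, fell by 1.73 on the log2 scale (edgeR adjusted p = 0.0103). LManVI, of the same family, changed by -0.98 (edgeR adjusted p = 0.0247) and did not pass without mutant replicate 2, control replicate 1 or control replicate 2, which left 1 gene lower. The summed CPM of the proteases was 6862 to 8871 in mutants and 5501 to 6587 in controls, and that of the carbohydrases 1715 to 2359 in mutants and 1984 to 2343 in controls. The carbohydrase sum mixes groups that moved apart. The 7 genes that rose were maltase genes and tobi, and the 2 that fell were mannosidase genes. The mannosidase genes LManVI and LManV alone had 377 and 265 CPM in mutants, against 743 and 432 CPM in controls. LManV did not pass (edgeR adjusted p = 0.0666).

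With all 6 libraries, no antimicrobial peptide gene passed in edgeR, DESeq2 or limma-voom, of 12 tested. In edgeR 0 had an unadjusted p under 0.05. Without replicate 3 of both genotypes, 1 of these genes passed as lower in edgeR. These peptides are the inducible effectors of the fly's immune response, and their summed CPM was 11.02, 33.5 and 46.5 in mutants and 31.2, 13.1 and 6.81 in controls, which overlap.

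Markers of the tissues that could carry lysozyme RNA were examined beside these results. Midgut markers were higher in mutants, with 9 of 12 genes passing higher, 0 lower and a median log2 fold change of 0.43. By the same rule 22.2% of all genes tested were higher. None of the midgut markers was called at 2-fold. DESeq2 and limma-voom gave 10 and 9 of these markers higher and none lower. Their summed CPM was 853, 726 and 772 in mutants and 502, 508 and 533 in controls, none of them at 0. Between the genotypes, LysB, LysD and LysE were lower and LysS higher in mutants, whose libraries had more midgut marker RNA. Within mutants, replicate 1 had the highest marker sum and also the highest LysB, LysD and LysS, at 26.4, 47.9 and 128.8 CPM. LysE was highest in mutant replicate 2, at 4.76 CPM, where the marker sum was lowest. Within controls, replicate 3 had the highest marker sum but the lowest LysB, LysD, LysE and LysS, at 77.35, 156.4, 16.9 and 48.6 CPM. Relative to the midgut marker sum, LysS was 0.151, 0.172 and 0.135 in mutants and 0.119, 0.121 and 0.0912 in controls, a ratio chosen after the values were seen. The genes mesh and Myo31DF, which encode a septate junction protein and a myosin of midgut cells, rose by 0.88 and 0.81 on the log2 scale.

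By the adjusted p alone, 22.2% of all genes tested were higher and 26.0% lower, to set beside the counts of the next lists. Of 11 salivary gland markers, 6 were tested, with 3 higher and 1 lower. Their summed CPM was 82.6 to 94.4 in mutants and 84.0 to 93.7 in controls. That sum rests mostly on fkh and CrebA, both transcription factor genes, which changed in opposite directions by 0.45 and -0.49 (edgeR adjusted p = 0.000855 and 0.00585). PH4alphaSG2, a prolyl hydroxylase gene, had 3.32, 3.28 and 4.55 CPM in mutants against 0, 0.343 and 0 CPM in controls (edgeR adjusted p = 0.000456), and PH4alphaSG1 rose by 1.41 on the log2 scale (edgeR adjusted p = 0.000982). The glue gene Sgs5 was at 0 and the other glue genes were under 0.2 CPM in both genotypes. Of 10 fat body markers, 7 were tested, with 2 higher and 2 lower and a summed CPM of 8805 to 10868 in mutants and 10856 to 12620 in controls. Desat1 and apolpp, of lipid synthesis and lipid transport, changed by 0.44 and -0.42 (edgeR adjusted p = 0.00545 and 0.000513). Lsp1gamma (0.78) and Apoltp (-0.18) did not pass in DESeq2, and each failed to pass without certain single libraries, where the count in its direction was 1. Of 8 hemocyte markers, 1 was higher and 1 lower. The higher gene, srp (0.32), is also counted among the midgut markers, and the lower gene, Hml (-0.20), did not pass in DESeq2, without TMM scaling, with a lower count minimum or without any of 4 single libraries. The hemocyte markers had sums of 203 to 245 CPM in mutants and 229 to 234 CPM in controls. The part of any of these tissues in the lysozyme changes was not tested.

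The pattern of the members over the 6 libraries was compared with that of 7258 genes with a mean of at least 10 CPM. On log2 CPM, the Pearson r between LysB, LysD and LysE was 0.997 to 0.998, and their r with LysS was -0.870 to -0.873. The genes most like the family sum were GILT1 (r = 0.998), Oga, CG4042, CG7506, gammaCOP, eca, sds22 and CG31915 (r = 0.993). For LysD they were CG1418, mRpL37 and BckdhA, for LysB Nup35, Hrb87F and Usp5, and for LysE mRpL37, fabp and CG4408. For LysS they were Rcd2, Mal-A6, which encodes a maltase, and GstD9, a glutathione transferase gene. All points share the same 6 libraries and the same split by genotype, and r measures the shape of a pattern and not its size.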

How the data were processed

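Poly(A) RNA of whole L2 larvae was sequenced as stranded paired-end libraries, 3 per genotype. The deposited files hold counts of read pairs per gene for each library, unstranded and for either strand; per the submitters' processing notes, the authors used STAR with the BDGP6 genome (STAR version: not given in the sources used here). In the study's methods a different tool, Kallisto, is named for quantification; the deposited files have the layout of STAR's gene counts and were treated as such. STAR counts uniquely mapped pairs only, and multimapping pairs, 3.972% to 4.718% per library, reached no gene. Counts came from the strand with nearly all reads. The other strand had 2.50% to 2.56%. Rows with no gene name, 486 in all and 0.0329% to 0.0461% of the assigned pairs, were left out. Gene symbols and coordinates came from the BDGP6.54 annotation, which matched 17790 of 17869 genes. 1 listed midgut marker was not analysed here. The files paired no sequences with the genes, and none is shown.

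Genes with at least 12 counts over the 6 libraries were tested with edgeR 4.0.16 in R 4.3.3 (TMM, robust quasi-likelihood, no covariates, Benjamini-Hochberg adjustment over all genes tested), after a test on simulated data. Genes passed with an adjusted p no larger than 0.05, and were called if the change also reached 2-fold. CPM are counts over TMM-scaled library sizes. DESeq2 1.42.0, limma-voom (limma 3.58.1), library totals without TMM, other count minimums, unstranded counts, a replicate block and leaving out libraries were alternatives. The members, the gene lists and the tests were chosen with earlier results of these data known. Besides the members, the text names the lysozyme and amidase genes by group, the genes with the smallest p of other lists, and the genes with the highest r. The study's methods call the replicates biological; the sources used here do not say whether the larvae came from separate cultures, and the p-values reflect only how far these samples spread. The limit for a count of 0 covers counting error only.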

Additional observations from a re-analysis of the deposited data

How the results depend on the processing

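LysB, LysD, LysE and LysS kept their direction and an adjusted p of at most 0.05 in all 14 alternatives run. The log2 fold changes ranged from -2.46 to -2.08 for LysB, from -2.87 to -2.47 for LysD, from -2.91 to -2.50 for LysE and from 0.96 to 1.16 for LysS. The largest adjusted p over these alternatives was 0.0149 for LysB, 0.0217 for LysD, 0.00895 for LysE and 0.00109 for LysS. The number of members called higher at 2-fold was 0 to 1 when single libraries were left out, and it was 0 without control replicate 3. The family sum gave a log2 ratio of -1.45 to -1.10 when single libraries were left out, -0.39 without LysD, and -1.26 with the pseudogene LysC added, an alternative chosen after seeing the data. The number of genes called higher ranged from 389 to 799 when single libraries were left out, against 600 with all 6. Same-numbered mutant and control libraries did not deviate together (r = -0.293, -0.103 and -0.306 for replicates 1, 2 and 3). With 3 libraries per genotype this cannot settle whether the numbers pair the libraries. With the number as a replicate block, the log2 fold change of LysD was -2.56, and PGRP-SB1 and mwh no longer passed (edgeR adjusted p = 0.0562 and 0.0751). The SE of LysB, LysD, LysE and LysS were then 0.089, 0.14, 0.12 and 0.065, against 0.28, 0.33, 0.31 and 0.11 without the block. Depth limits LysP and LysX, and the low counts of CG30062 and LysC.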

Other observations

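Reads on the strand of LysD were also assigned to LysC, which overlaps LysD by 10 bases. The counts assigned to LysC on its opposite strand, not scaled to library size, were 43, 26 and 25 in mutants and 188, 176 and 105 in controls (94 and 469 in all). Pairs that overlap both genes are also among the own-strand counts of LysD, so the lower counts in mutants are not a result separate from that of LysD. On its own strand LysC had 89 counts in mutants and 389 in controls.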
